A study of Rattus norvegicus with 18 samples.

Results

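The genes described here encode enzymes that attach and remove ubiquitin: the ubiquitin-conjugating (E2) enzymes, whose symbols begin with Ube2, and the ubiquitin-specific proteases (USP), whose symbols begin with Usp and a digit. They were taken by symbol from a table of 32883 genes, leaving out Usp2, Usp18 and Ube2l6, which gave 81 genes, 49 USP and 32 E2. Usp6nl carries the prefix but is known to encode a GTPase-activating protein and not a protease.

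RNA came from cortical collecting ducts microdissected from kidneys of male Sprague-Dawley rats, the segment where sodium, potassium, acid and water transport is finely tuned. The Vehicle rats had received normal saline and the LPS rats lipopolysaccharide, the endotoxin of Gram-negative bacteria, both into the peritoneum, 3 h before dissection. Each group held 3 numbered samples with 3 libraries each, 18 libraries in all, made from amplified cDNA of polyadenylated RNA. Dose and age were not given in the sources used here. The labels do not state that each number was a different animal, so a p-value speaks for the variation among these samples, part of which may be technical.

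Ubiquitin is a small protein that marks others for degradation by the proteasome or changes their traffic and signalling. An E1 enzyme activates it, an E2 carries it and, with an E3 ligase, passes it to the target, while proteases such as the USP family cut it off again. In the collecting duct, ubiquitin is known for controlling how long the epithelial sodium channel and other transporters stay at the cell surface, and in inflamed cells for relaying signals from Toll-like and cytokine receptors. Related enzymes carry ubiquitin-like modifiers such as NEDD8.

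Levels are in TPM, an abundance corrected for transcript length and scaled to the same total in each library, averaged over the 3 libraries of a sample. Changes are on the log2(TPM + 1) scale and were tested with limma in a fit of the 12393 genes whose mean over all libraries reached 1 TPM, with the sample number as a block. Calls were made where the Benjamini-Hochberg adjusted p over all tested genes was under 0.05. Of the 81 members 69 passed this filter, 39 USP and 30 E2, and 12 did not. Ube2d4, at a mean of 1.01 TPM over all libraries, lay just inside it, and Usp35 and Ube2ql1, at 0.987 and 0.977 TPM, just outside.

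Principal cell markers stood at a summed 16624 to 18079 TPM in Vehicle and 9411 to 13004 TPM in LPS samples, and 7 of 10 were lower. Intercalated cell markers summed to 10302 to 10721 and 7636 to 9855 TPM, and 1 of 10, Atp6v0d2, was lower (5 of 10 without LPS 1). Markers of both defining cell types of the duct were present. Macrophage and monocyte markers summed to 123 to 253 TPM in Vehicle and 212 to 444 TPM in LPS, and 5 of 10 tested were higher and 1 lower, with Cd163 and Itgam under 0.4 TPM in every sample. Endothelial markers, 2 of 9 tested higher and 1 lower, summed to 23.9 to 111 and 42.5 to 99.7 TPM. Distal convoluted and connecting tubule markers, 4 of 5 tested lower, summed to 5326 TPM in Vehicle 1, of which Calb1 gave 4943 TPM. In the other samples they summed to 58.4 to 332 TPM, and Pvalb was at 0 in every sample. Of the 4 lower, Calb1 and Tmem52b had overlapping groups and were not called without the sample-number block. Thick ascending limb markers, 1 of 7 higher, summed to 156 to 186 and 154 to 338 TPM, and of 4 tested proximal tubule markers and 1 of fibroblasts none was called. Over all tested genes 7.17% were higher and 22.2% lower. With the median-ratio scaling described below these shares were 6.87% and 3.7%. Then 1 of 10 principal cell, 0 of 10 intercalated cell and 1 of 5 distal markers were lower, and 4 of 10 macrophage and monocyte markers were higher. With quantile normalization 5 of 10 principal cell markers were lower. The part of these marker changes in the results below was not tested. LPS 1 stood nearer to Vehicle than did the other LPS samples: its libraries correlated with those of Vehicle 1 at a median r of 0.929 across genes, against 0.866 for LPS 2 and 0.874 for LPS 3. In bulk tissue, fewer cells of a type and less RNA per cell cannot be told apart.

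In saline-treated ducts the E2 genes were far more abundant than the USP genes. The E2 genes summed to 2499.8 ± 101 TPM and the USP genes to 796 ± 74.8 TPM (SD, n = 3). Among tested members, the median level was 69.0 ± 3.72 TPM for E2 genes and 12.6 ± 1.11 TPM for USP genes. Ube2d3 (ENSRNOG00000013741), which encodes an E2 that starts ubiquitin chains with many E3 ligases, led the E2 genes at 442, 392 and 437 TPM in Vehicle 1, 2 and 3. It alone made up 16.9% ± 0.437 of summed E2 TPM. Ube2s, whose product extends chains for the anaphase-promoting complex, followed at 261 ± 26.6 TPM. Among the 5 most abundant were also Ube2r2, a partner of cullin ligases, at 139 ± 10.4 TPM, and Ube2l3, a partner of RING-between-RING ligases, at 133 ± 5.36 TPM. The sample values of Ube2r2 and Ube2l3 overlapped.

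Among USP genes Usp14, the protease bound to the proteasome, was the most abundant at 90.6, 85.15 and 92.3 TPM. Usp4 at 48.7 ± 4.25 TPM, Usp5, which takes apart free ubiquitin chains, at 44.3 ± 4.16 TPM, Usp3, a histone deubiquitinase, at 42.8 ± 1.64 TPM and Usp22, the protease of the SAGA chromatin complex, at 40.6 ± 1.64 TPM came next. Apart from Usp14, the sample values of neighbours in this order overlapped. The 12 untested members had Vehicle means of at most 1.75 TPM. Usp26 and Usp9y were listed at or near 0 throughout, with at most 0.01 TPM in a sample. The plot of levels shows the E2 genes toward the top right and the USP genes lower down.

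**Figure D1:**
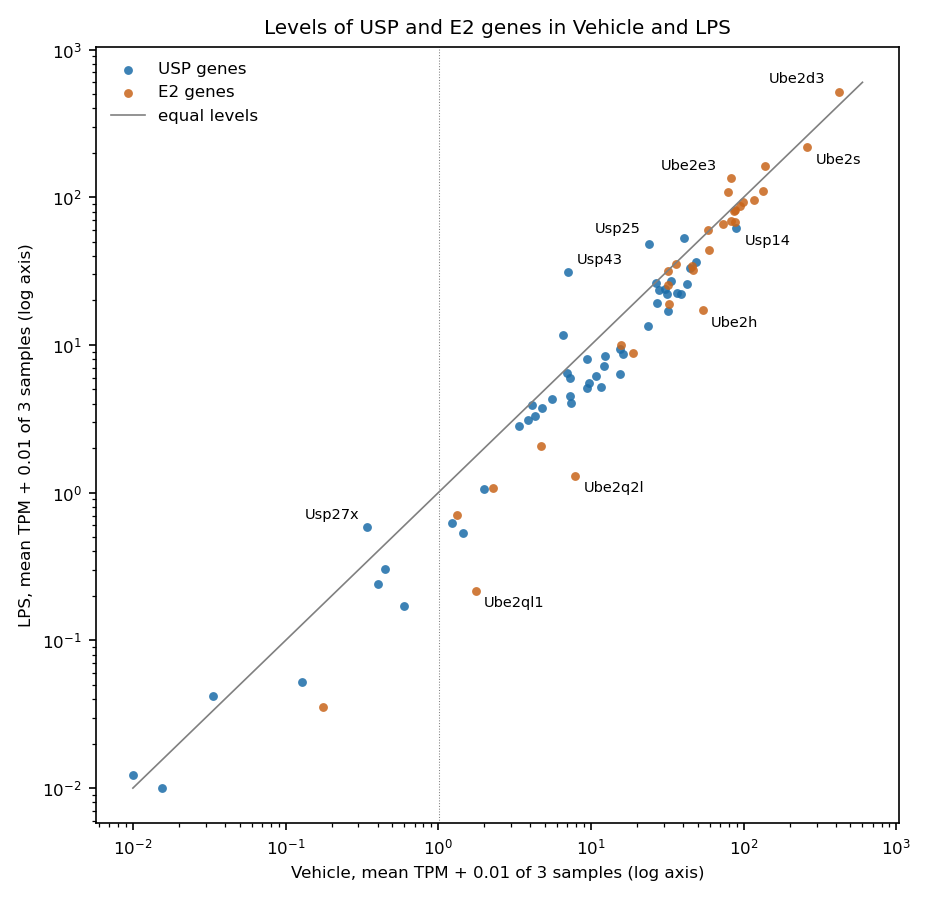
Mean TPM of all but 1 of the 81 members in Vehicle (horizontal) and LPS (vertical), with 0.01 added so that values of 0 can be drawn on log axes. Points are genes, the solid line marks equal levels and the dotted line a mean of 1 TPM in Vehicle; Usp43 and Usp25 lie well above the line, Ube2h, Ube2q2l and Ube2ql1 well below it.

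After LPS, 4 of the 69 tested members were higher and 14 lower. Over all tested genes 7.17% were higher and 22.2% lower, and 5.80% and 20.3% of the members, so their shares were near those of the whole table. Usp2, Usp18 and Ube2l6, left out at the start, enter none of the member counts or rankings, which therefore do not cover the whole families. The median log2 change of the members was -0.34, beside -0.38 over all tested genes. Of 39 USP genes 3 were higher and 10 lower (median -0.45), and of 30 E2 genes 1 was higher and 4 lower (median -0.28). The difference between the families was not tested. Every LPS sample lay below every Vehicle sample for 40 members and above for 6, that is 58.0% and 8.70% of them, where 47.1% of all tested genes lay below and 9.82% above. The summed USP level was 634 ± 33.2 TPM in LPS, with all 3 LPS samples (602 to 668 TPM) below all 3 Vehicle samples (736 to 879.7 TPM). The summed E2 level was 2400.1 ± 62.98 TPM in LPS, and the groups overlapped. These sums and the counts of samples lying apart hold for TPM as deposited only. With the median-ratio scaling described below, the median log2 change was -0.05 for USP genes and 0.13 for E2 genes.

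How many members fell depended on the scaling, since the bulk of genes was lower in TPM. When libraries were instead brought to a common median ratio, the median over all tested genes moved from -0.38 to -0.01, and that of the members from -0.34 to 0.03. Then 4 members were higher and 2 lower, with 6.87% and 3.7% of all tested genes. With quantile normalization 3 were higher and 2 lower, with 6.53% and 4.67% of all genes. Under TPM and both scalings Usp43, Usp42 and Ube2e3 were called higher and Ube2q2l and Ube2h lower. The other 12 members called lower in TPM lost their call under either scaling, with median-ratio changes from -0.78 for Usp53 to -0.12 for Usp14. Without the replicate block 5 members were higher and 20 lower, with 7.36% and 29.2% of all genes. No member was called by limma when LPS and Vehicle sample 3 were left out (2 higher and 5 lower at an unadjusted p under 0.05), while without LPS 1 in an unpaired fit 8 were higher and 35 lower, with 10.9% and 46.4% of all genes.

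**Figure D2:**
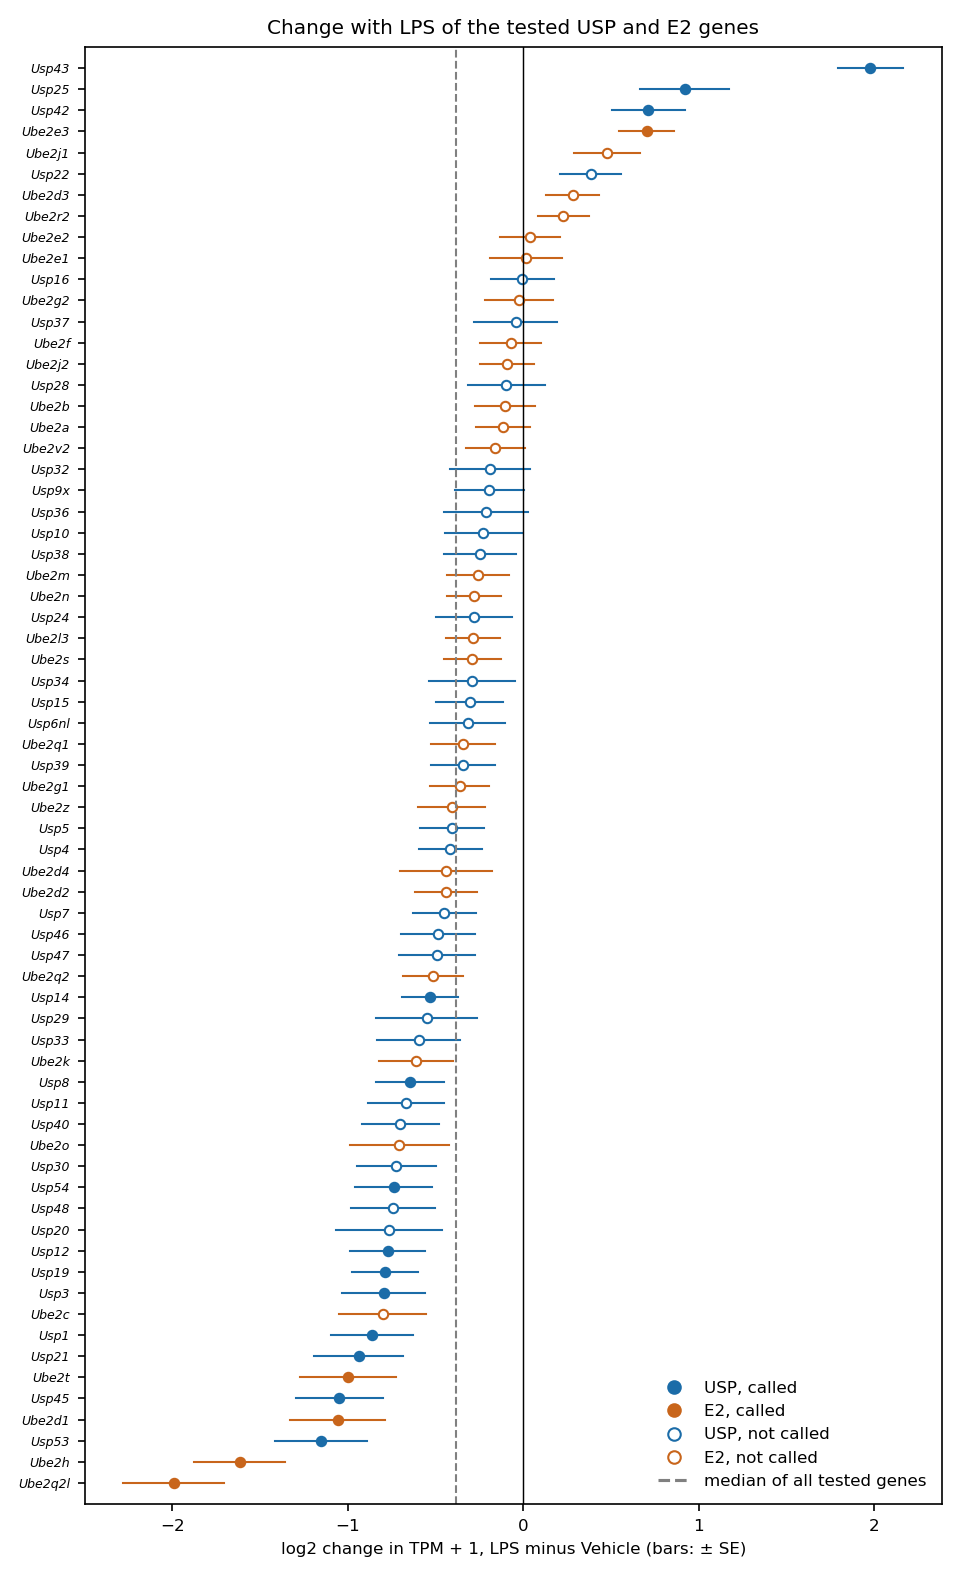
Change with LPS of all but 1 of the 69 tested members on the log2(TPM + 1) scale, with bars of ± SE from limma. Filled points were called at an adjusted p under 0.05, and the dashed line is the median of all tested genes at -0.38; 4 filled points lie right of 0 and 14 left of it.

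The largest rise among the members was in Usp43 (ENSRNOG00000003785), which encodes a protease of the USP family. It stood at 5.19, 8.24 and 7.80 TPM in Vehicle 1, 2 and 3 and at 21.6, 35.8 and 35.45 TPM in LPS 1, 2 and 3. Every LPS sample was above every Vehicle sample, with LPS 1 the lowest of the 3. The mean was 4.37-fold higher, and the log2 change was 1.98 (SE 0.186, limma adjusted p = 0.00151). Median-ratio scaling gave 2.36 and quantile normalization 2.31. From rank 30 among USP genes in Vehicle, with 0.893% ± 0.223 of summed USP TPM, it came to hold 4.93% ± 1.47 in LPS (SD, n = 3).

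Usp25 (ENSRNOG00000001573) encodes a protease known to remove ubiquitin from TRAF adaptor proteins in Toll-like and interleukin-17 receptor signalling. Its levels were 23.3, 20.6 and 28.0 TPM in Vehicle and 29.0, 59.7 and 56.5 TPM in LPS. LPS 2 and 3 were well above the Vehicle samples, and LPS 1 exceeded the highest of them by little. The log2 change was 0.92 (SE 0.254, limma adjusted p = 0.0381). Median-ratio scaling gave 1.32 and quantile normalization 1.18, and neither was called.

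Usp42 (ENSRNOG00000001059), whose product is known to act on p53, stood at 5.63, 6.86 and 7.13 TPM in Vehicle and 8.37, 11.9 and 14.6 TPM in LPS. The groups did not overlap, and the log2 change was 0.71 (SE 0.208, limma adjusted p = 0.0432), or 1.08 and 1.10 under the scalings. Usp22 was also above Vehicle in every LPS sample, at 51.5, 59.0 and 48.8 TPM against 41.8, 38.7 and 41.3 TPM. Its log2 change of 0.38 (SE 0.175) was not called in TPM, nor was that of 0.60 under quantile normalization, whereas the change of 0.79 with median-ratio scaling was.

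The 1 E2 member called higher was Ube2e3 (ENSRNOG00000004544), which encodes an E2 known to work with Nedd4-type ligases, including on the epithelial sodium channel. It stood at 82.2, 80.8 and 85.2 TPM in Vehicle and 119, 146 and 139.8 TPM in LPS. The Vehicle samples were tight, and LPS 1 was again the lowest LPS sample. The log2 change was 0.70 (SE 0.156, limma adjusted p = 0.0232), or 1.11 under median-ratio scaling and 0.80 under quantile normalization. Its share of summed E2 TPM went from 3.31% ± 0.0847 to 5.63% ± 0.670 (SD, n = 3). The ligase gene Nedd4l, chosen after its values were seen, stood at 96.1, 90.5 and 107 TPM in Vehicle and 102, 221 and 192 TPM in LPS. Its log2 change of 0.74 (SE 0.238) was not called, and its groups overlapped. Nedd4 itself was called lower, with a log2 change of -0.69 (SE 0.169), or -0.28 with median-ratio scaling, which was not called. In the list of HECT ligases that holds both, 1 of 23 tested was higher and 7 lower. For all 4 members that rose, LPS 1 was the lowest LPS sample, and it was the one with the highest summed macrophage markers, at 444 TPM against 272 and 212 TPM in LPS 2 and 3. Lyz2 gave most of that sum, at 253, 112 and 91.8 TPM in LPS 1, 2 and 3. Most other tested markers on the list also had LPS 1 highest among LPS samples: Fcer1g, Tyrobp, Csf1r, C1qa, C1qb and C1qc. Fcer1g stood at 67.1, 44.5 and 36.7 TPM. Adgre1 had LPS 1 between the other LPS samples. Cd14, at 21.0, 43.2 and 28.3 TPM, and Cd68, at 4.66, 6.12 and 7.49 TPM, had LPS 1 lowest. The part of such cells in these rises was not tested.

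**Figure D3:**
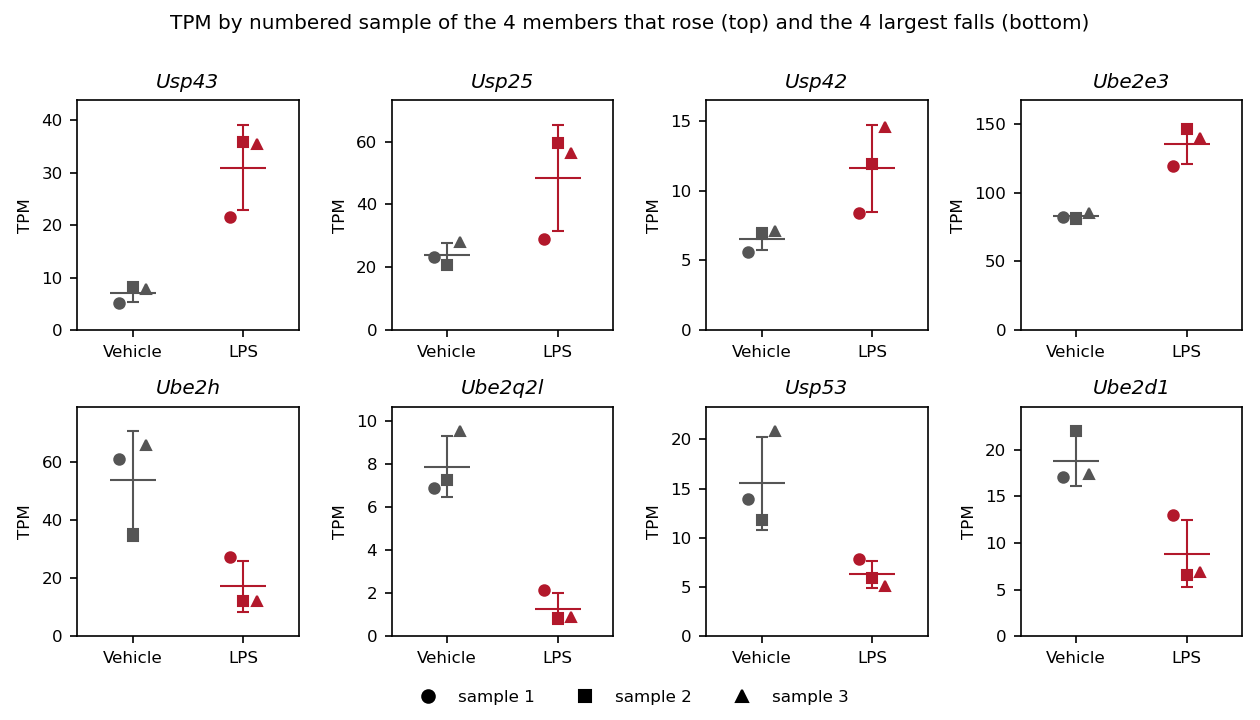
TPM of the 4 members that rose (top) and the 4 largest falls (bottom) in each numbered sample; points are samples, with the sample number as the marker shape, horizontal lines are means and bars are SD (n = 3). In each panel the LPS samples lie on one side of all Vehicle samples, and LPS 1 lies nearest to Vehicle.

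The stretches before the start sites of 4 members that changed are shown for their base composition. They are the 120 bases before the annotated start, 5′ to 3′ on the gene's strand, from RefSeq on GRCr8, with Ube2e3 at chr3:84194126-84194245 (plus strand), Usp25 at chr11:29090533-29090652 (plus strand), Ube2h at chr4:59897584-59897703 (minus strand) and Ube2q2l at chrX:12513480-12513599 (minus strand). Capitals mark the GC box, GGGCGG on either strand, with overlapping matches joined. Usp43 and Usp42 are not in the table.
Ube2e3: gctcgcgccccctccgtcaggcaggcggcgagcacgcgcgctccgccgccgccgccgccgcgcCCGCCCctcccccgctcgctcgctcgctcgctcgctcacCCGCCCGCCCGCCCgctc
Usp25: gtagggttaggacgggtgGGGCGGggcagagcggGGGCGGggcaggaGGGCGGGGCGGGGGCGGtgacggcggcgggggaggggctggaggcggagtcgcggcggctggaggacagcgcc
Ube2h: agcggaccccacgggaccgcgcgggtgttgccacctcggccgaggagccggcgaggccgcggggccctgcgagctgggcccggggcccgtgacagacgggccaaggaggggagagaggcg
Ube2q2l: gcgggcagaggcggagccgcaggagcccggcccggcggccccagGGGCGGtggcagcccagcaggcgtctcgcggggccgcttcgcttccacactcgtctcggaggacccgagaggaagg
These stretches hold 4, 5, 0 and 1 GC boxes and are 85.8%, 81.7%, 79.2% and 77.5% G and C.

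Windows of 250 bases before the start could be matched by symbol for 66 of the 81 members. A GC box was present in 68.2% of them, beside 40.2% of 19005 protein-coding symbols, and the median G and C content was 64.4% beside 54.8%. These protein-coding symbols were not limited to the genes tested here. No comparison with tested genes alone was made, so the differences cannot be read as particular to the members. The ratio of observed to expected CpG, a measure of CpG island character, had a median of 0.83 in members and 0.517 over protein-coding symbols. The NF-kappaB consensus matched 10.6% of members and 6.91% of protein-coding symbols. The interferon-stimulated response element matched 1.52% and 3.28%, the GAS element, TTCNNNGAA, 4.55% and 7.29%, the CCAAT box, CCAAT, 24.2% and 35.4%, and the CRE, TGACGTCA, 0% and 2.01%. Matches were sought on both strands for every motif. None of the NF-kappaB, interferon-stimulated and GAS motifs was found in the windows of the 2 matched members called higher or the 13 matched members called lower. A match describes letters in a window and was not tested as a site.

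Of the members that fell, Ube2q2l and Ube2h changed most. Ube2q2l (ENSRNOG00000023261), named for its likeness to Ube2q2, stood at 6.89, 7.25 and 9.53 TPM in Vehicle and 2.14, 0.840 and 0.893 TPM in LPS. All LPS samples lay far below all Vehicle samples. The log2 change was -1.99 (SE 0.288, limma adjusted p = 0.00706), or -1.70 and -1.63 under the scalings. RSEM divides reads that fit several transcripts by estimate, and how many reads Ube2q2l shares with Ube2q2 is unknown here. Ube2h (ENSRNOG00000048205), the E2 of the CTLH ligase complex, stood at 61.0, 34.6 and 65.7 TPM in Vehicle and 27.4, 12.2 and 12.2 TPM in LPS. Vehicle 2 was low and LPS 1 high within their groups, which still did not overlap. The log2 change was -1.62 (SE 0.259, limma adjusted p = 0.00962), or -1.22 and -1.35 under the scalings.

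Of 7 tested E2 genes that start ubiquitin chains, Ube2e3 rose and Ube2d1 fell, or 14.3% each way. Over all tested genes 7.17% were higher and 22.2% lower, and these shares also stand beside the counts of the small groups below. Ube2d1 (ENSRNOG00000000611) stood at 17.1, 21.97 and 17.4 TPM in Vehicle and 12.98, 6.62 and 6.95 TPM in LPS, with a log2 change of -1.06 (SE 0.269, limma adjusted p = 0.0312). Its scaled changes of -0.68 and -0.69 were not called. Ube2d2 went from 59.2 ± 7.44 to 43.7 ± 9.59 TPM and Ube2d3 from 424 ± 27.3 to 519 ± 74.9 TPM (SD, n = 3), and neither was called. Ube2d3 made up 17.7% of summed E2 TPM in LPS 1 and 23.6% and 23.7% in LPS 2 and 3. The products of Ube2d1, Ube2d2 and Ube2d3 are close relatives, so reads may be divided between them by estimate.

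The E2 genes of cell division and genome maintenance had 1 of 5 tested members lower, or 20%, beside 22.2% of all tested genes. Their median log2 change was -0.29, beside -0.38 over all tested genes. Ube2t, the E2 of the Fanconi anaemia pathway, stood at 4.88, 3.38 and 5.86 TPM in Vehicle and 3.28, 1.46 and 1.39 TPM in LPS, with a log2 change of -1.0006 (SE 0.272, limma adjusted p = 0.0368). The scaled changes of -0.72 and -0.66 were not called. Ube2c, which starts chains for the anaphase-promoting complex, had 28.3, 28.6 and 39.9 TPM in Vehicle and 27.6, 12.5 and 16.6 TPM in LPS, and just missed the call (limma adjusted p = 0.0508). Ube2s stood at 301, 172 and 183 TPM in LPS, so LPS 1 was above all Vehicle samples and LPS 2 and 3 below them. A list of cell division genes had 13 of 17 tested lower, beside 22.2% of all tested genes, and a median log2 change of -1.06. It summed to 344 to 421 TPM in Vehicle and 158 to 267 TPM in LPS. With median-ratio scaling 1 of 17 was lower, beside 3.7% of all tested genes. Its part in the change of the E2 genes was not tested.

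E2 genes of endoplasmic reticulum quality control had 0 of 4 called by limma, with 0 at an unadjusted p under 0.05 in the direction of a fall and 1 in that of a rise. That gene, Ube2j1, stood at 90.2, 73.3 and 71.8 TPM in Vehicle and 95.2, 110.4 and 122 TPM in LPS. Its groups did not overlap, and it was called without the replicate block. The E2 genes of NEDD8 were not called: Ube2m stood at 82.5 ± 7.33 and 69.4 ± 13.1 TPM and Ube2f at 86.7 ± 13.4 and 81.2 ± 4.30 TPM in Vehicle and LPS. Ube2n and Ube2v2, whose products together build lysine-63 chains used in receptor signalling, were not called either, at 117 ± 9.26 and 96.2 ± 6.93 TPM for Ube2n. Ube2v1 was not analysed here because no row carried its symbol. Ube2z, which takes ubiquitin from the E1 enzyme Uba6, stood at 45.7 ± 4.40 and 34.3 ± 4.33 TPM without a call.

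Usp53 led the falls among the proteases. Usp53 (ENSRNOG00000014660), known to associate with tight junctions, stood at 13.95, 11.8 and 20.8 TPM in Vehicle and 7.85, 5.94 and 5.13 TPM in LPS, with a log2 change of -1.15 (SE 0.262, limma adjusted p = 0.0243). Its relative Usp54 was lower too, at 7.43 ± 1.43 and 4.03 ± 0.176 TPM. With scaling their changes were -0.78 and -0.78 for Usp53 and -0.39 and -0.34 for Usp54, without a call.

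Proteases of histones, chromatin and DNA repair had 1 of 13 tested members higher, Usp42, and 3 lower. The 3 were Usp45, known to act on the repair factor ERCC1, Usp1, which with Wdr48 acts on FANCD2 and PCNA, and Usp3. Usp45 stood at 9.19, 11.6 and 13.85 TPM in Vehicle and 6.33, 4.89 and 4.27 TPM in LPS (log2 change -1.05, SE 0.248). Usp1 stood at 16.0, 14.4 and 18.3 TPM in Vehicle and 11.9, 7.34 and 6.78 TPM in LPS (log2 change -0.86, SE 0.233). Usp3 was close to Vehicle in LPS 1, at 39.4 TPM against 41.3 to 44.5 TPM, and lower in LPS 2 and 3, at 18.4 and 19.5 TPM. Usp7, known for its action on Mdm2 and p53, stood at 26.9 ± 4.11 and 19.4 ± 1.16 TPM and was not called.

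Of 6 tested proteases of immune and NF-kappaB signalling, Usp25 rose and Usp21 fell. Usp21, which acts on histone H2A and on RIPK1, stood at 30.7, 31.2 and 33.8 TPM in Vehicle and 25.3, 13.4 and 12.3 TPM in LPS, with a log2 change of -0.94 (SE 0.252, limma adjusted p = 0.0359). Usp15 at 33.5 ± 4.27 and 27.0 ± 2.19 TPM, Usp4 at 48.7 ± 4.25 and 36.3 ± 3.31 TPM, Usp11 and Usp38 were not called. Usp27x, Usp31 and Usp35 were below the filter, with Usp35 going from 1.45 ± 0.342 TPM to 0.523 ± 0.0551 TPM (SD, n = 3).

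Of 6 tested USP symbols of the endosome and membrane traffic, Usp6nl included, 1 was lower, Usp8. Of 2 tested proteases of the proteasome and free chains 1 was lower, Usp14. Usp8, which acts on receptors and sorting proteins at endosomes, stood at 33.9, 31.8 and 43.6 TPM in Vehicle and 24.1, 22.5 and 21.3 TPM in LPS (log2 change -0.64, SE 0.194, limma adjusted p = 0.0462). Usp14 stood at 68.2, 57.8 and 58.8 TPM in LPS, below all Vehicle samples (log2 change -0.53, SE 0.159, limma adjusted p = 0.0456). With median-ratio scaling these changes were -0.24 and -0.12 and were not called. Usp10, known to be induced by vasopressin in cultured collecting duct cells, stood at 23.95, 25.2 and 34.9 TPM in Vehicle and 25.3, 23.9 and 20.9 TPM in LPS, and the groups overlapped. Usp19, which has a form anchored in the endoplasmic reticulum, fell from 39.1 ± 5.37 to 22.2 ± 4.79 TPM. Usp30, the mitochondrial protease that opposes Parkin, stood at 10.8 ± 1.23 and 6.18 ± 1.22 TPM and just missed the call (limma adjusted p = 0.0507). Usp12 fell from 23.6 ± 3.17 to 13.5 ± 1.77 TPM, and its close relative Usp46, which like Usp12 binds Wdr48, stood at 12.3 ± 1.08 and 8.47 ± 1.17 TPM without a call.

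**Figure D4:**
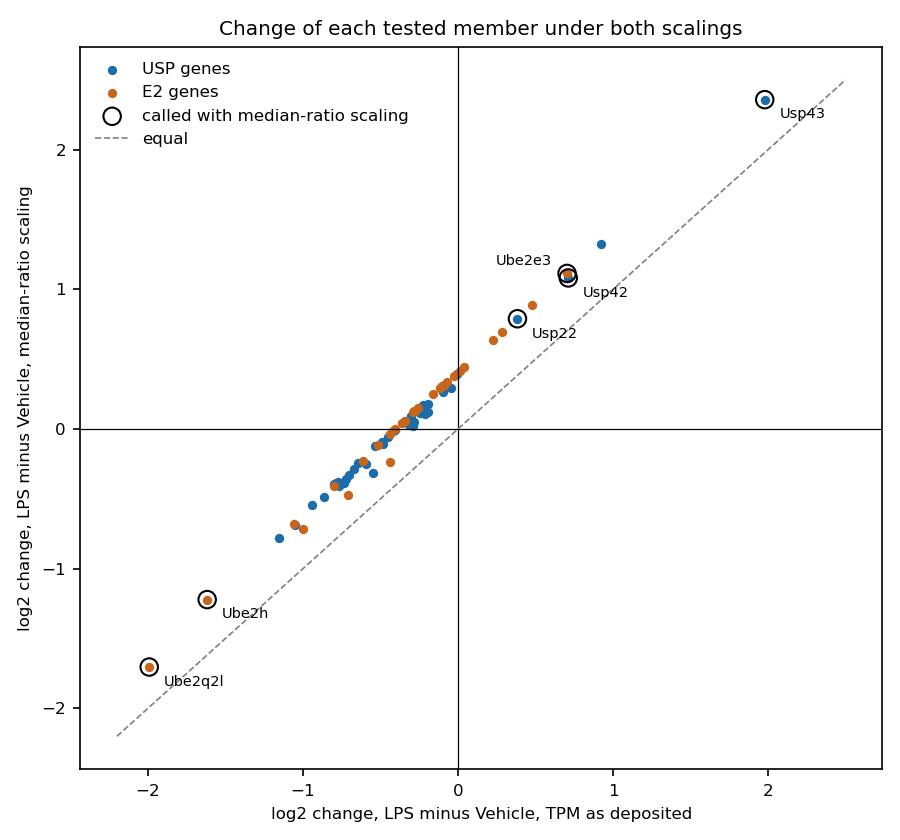
Change with LPS of all but 1 of the tested members with TPM as deposited (horizontal) and after median-ratio scaling (vertical), both as log2(value + 1); rings mark the 6 members called with median-ratio scaling and the dashed line marks equal values. The points lie above the dashed line, and Usp43, Ube2h and Ube2q2l lie farthest from the rest.

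The members below the filter were not tested. Ube2ql1, an E2-like gene, stood at 1.93, 1.98 and 1.33 TPM in Vehicle and 0.533, 0.0633 and 0.0233 TPM in LPS. Of the 12 untested members 9 had a lower mean in LPS. In 4 of these, Ube2ql1, Usp35, Usp49 and Usp13, every LPS sample was below every Vehicle sample. Such a separation was seen in 47.1% of all tested genes, and its share among genes below the filter was not taken. Usp27x had the higher mean in LPS, at 0.331 ± 0.0775 and 0.577 ± 0.192 TPM (SD, n = 3), with groups that overlapped. At such levels the depth behind a value is unknown.

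Ratios of related members within a library do not depend on its scaling factor. The ratios here divide means over a sample's 3 libraries, so factors that differ between those libraries act as weights. Over 15 such ratios, chosen after the members' values were seen, 8 had groups that did not overlap. With 3 samples against 3 the exact two-sided permutation test cannot go below p = 0.1, and adjusted over the 15 ratios the smallest value was 0.188, so none passed. Usp25 stood at 3.49, 3.09 and 3.80 times the level of its closest relative Usp28 in Vehicle and at 5.28, 7.55 and 9.36 times in LPS, while Usp28 itself had 6.91 ± 0.393 and 6.48 ± 1.27 TPM. The ratio of Ube2e3 to Ube2e2 was 1.25, 1.47 and 1.56 in Vehicle and 2.08, 2.38 and 2.30 in LPS. That of Ube2d1 to Ube2d3 was 0.0386, 0.0560 and 0.0398 in Vehicle and 0.0300, 0.0116 and 0.0126 in LPS. Ube2j1 stood at 0.903, 0.742 and 0.717 times Ube2j2 in Vehicle and 0.945, 1.20 and 1.39 times in LPS. By contrast Ube2a and Ube2b, the Rad6 pair, kept overlapping ratios of 1.02 to 1.21 in Vehicle and 1.00 to 1.25 in LPS.

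**Figure D5:**
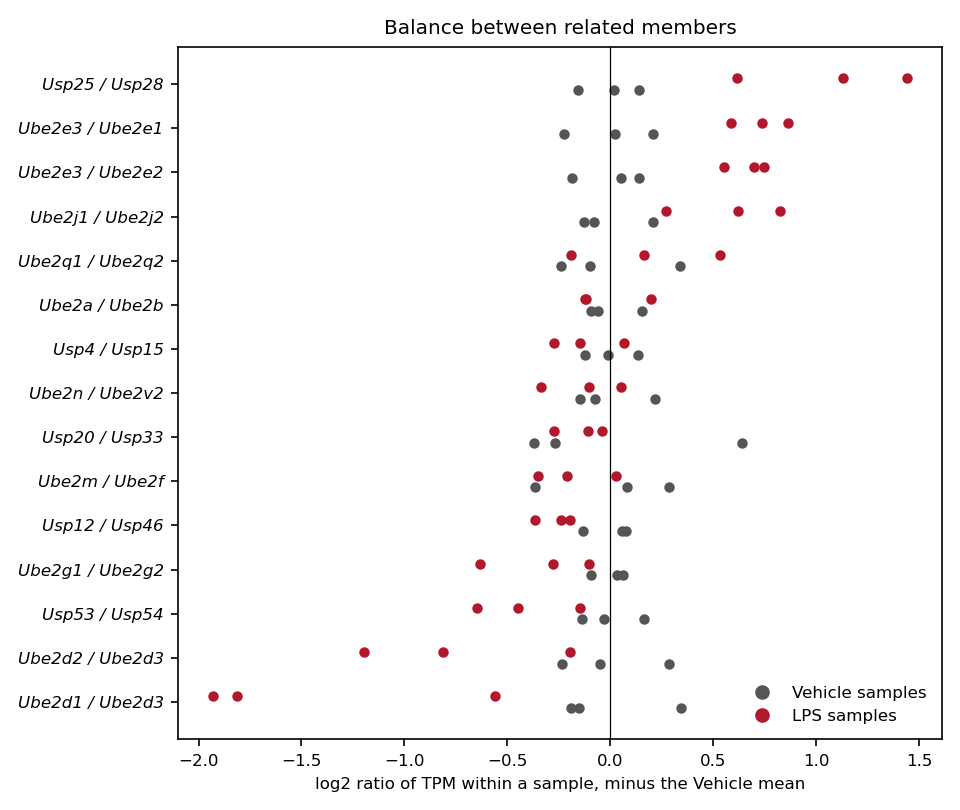
Log2 ratio of TPM between 2 related members within each sample, with the Vehicle mean of that ratio set to 0; grey points are Vehicle samples and red points LPS samples. The ratios at the top (Usp25 to Usp28, Ube2e3 to Ube2e1 and Ube2e2) are higher in every LPS sample, and Ube2d1 to Ube2d3 at the bottom is lower in each.

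The other genes of the ubiquitin system and their partners, read from 7 lists of 114 symbols, had 4 of 110 tested rows higher and 24 lower. These shares of 3.64% and 21.8% stand beside 7.17% and 22.2% of all tested genes. Among 10 E1 activating enzymes 1 was higher and 4 lower. Uba7, the E1 of the interferon-induced modifier ISG15, stood at 7.25, 3.95 and 6.35 TPM in Vehicle and 31.7, 59.6 and 65.0 TPM in LPS. Nae1, a subunit of the E1 of NEDD8, went from 25.9, 23.0 and 24.6 TPM to 14.3, 10.1 and 8.91 TPM, and it was still called with median-ratio scaling at -0.72. Of 36 other deubiquitinase rows 2 were higher and 6 lower. Tnfaip3, which encodes the NF-kappaB inhibitor A20, stood at 2.23, 0.917 and 0.770 TPM in Vehicle and 12.5, 34.8 and 35.1 TPM in LPS. Zup1, a protease specific for lysine-63 chains, rose by 1.37 (log2, SE 0.221, limma adjusted p = 0.00981).

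Of 23 tested HECT ligases 1 was higher and 7 lower. Herc6, an interferon-induced ligase of ISG15, rose by 3.96 (log2, SE 0.561), and Nedd4 stood at 88.4, 100.4 and 153 TPM in Vehicle and 57.15, 72.1 and 78.6 TPM in LPS. Of 11 rows of ubiquitin and ubiquitin-like genes 0 were higher and 1 lower: Ubb, a polyubiquitin gene, stood at 7530.3, 5750.2 and 6342 TPM in Vehicle and 5528, 4527 and 4561 TPM in LPS, and Sumo3 was not called. With median-ratio scaling the change of Ubb was -0.01 and was not called. Lower were also 2 of 7 E2 enzymes under other symbols, Aktip and Atg3, 2 of 7 proteases of SUMO and NEDD8, Senp8 and Senp7, and 2 of 16 partners of the enzymes, Dcun1d4 and Gmps. Of these 6 genes Dcun1d4, which promotes NEDD8 transfer to cullins, was still called with median-ratio scaling, at -0.84. The cell division list held Cdc20 and Ccnb1 as its genes of smallest p, at -1.81 and -1.16.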

How the data were processed

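The deposited values are TPM for each Ensembl gene in each library. STAR 2.7.9a, RSEM 1.3.3 and the build Rnor_6.0 come from the submitters' processing notes. The annotation release, filters and read depth were not given in the sources used here, so no counting interval is given. Columns beginning with N were read as normal saline and L as LPS, with their numbers as sample and library; 0 columns of other samples and 0 identical library pairs were present.

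For testing, log2(TPM + 1) was taken in every library and its mean over a sample's 3 libraries entered limma 3.58.1 in R 4.3.3 (variance trend, two-sided), for genes averaging 1 TPM or more. The sample number entered as a block since the labels' treatment protocol calls the groups paired, without saying what a pair shares; same-numbered samples deviated together only weakly (r = 0.062, -0.017 and 0.069 across genes). Simulated data were used to test the code. No count test was used because TPM keeps no read number.

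The members and lists were chosen with earlier results of these data known. Genes named were the called members with the 10 largest changes each way, the 5 most abundant of each family, a fixed set, and the 2 members of smallest p in each list. Others were chosen after their values were seen. The values of 1 member are not reported here, though it enters the counts and sums. Alternatives were the block, library summary, pseudocount, filter, scaling, variance model and left-out samples.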

Additional observations from a re-analysis of the deposited data

How the results depend on the processing

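Over 14 alternatives every called member kept its direction, and none kept its call in all. Usp43 and Ube2h were called in 11 of 14, Ube2e3 in 10 of 14 and Ube2q2l in 10 of 13. Counts below give higher and lower calls by limma for all genes, members, USP genes, E2 genes and the other lists (cell division included), in that order, and the cause of each shift was not tested. As reported they were 889 and 2757, 4 and 14, 3 and 10, 1 and 4, and 4 and 37. With the median of the libraries all were 0 and 0, with 1019 and 4167 genes and 6 and 22 members at an unadjusted p under 0.05. Without a filter on low values they were 18 and 2 over all genes and 0 and 0 elsewhere, with 6 and 32 members unadjusted. With median-ratio scaling the lower calls were 458, 2, 0, 2 and 4, and with quantile normalization 579, 2, 0, 2 and 10. With all 18 libraries, an estimated correlation and the replicate block, the lower calls were 5295, 32, 19, 13 and 58, and E2 genes had 3 higher. Without the replicate block 5 members were higher and 20 lower, 2 of the higher ones E2 genes (Ube2e3 and Ube2j1), and no other of these counts moved by over 1.5 times. Leaving out a sample number, or LPS 1 alone, an alternative chosen after the data were seen, gave from 0 to 1357 higher and 0 to 5750 lower over all genes. The same ranges were 0 to 8 and 0 to 35 members, 0 to 4 and 0 to 21 USP genes, 0 to 4 and 0 to 14 E2 genes, and 0 to 11 and 0 to 60 in the other lists. Without replicate 3 all counts were 0 (738 and 1463 genes and 2 and 5 members unadjusted), and without replicate 2 the members were 1 and 2, Usp43 higher and Ube2h and Ube2q2l lower. The depth of the libraries is unknown.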
